A study of Caenorhabditis elegans with 9 samples.

Results

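The pals genes of the nematode Caenorhabditis elegans code for proteins that share the ALS2CR12 signature. They were taken as every gene whose symbol starts with pals- and a number, and 35 of the 21776 genes in the deposited table met that rule. The annotation of the same genome build, WBcel235, holds 38 such genes, and pals-10, pals-21 and pals-40 were not analysed here. The 35 members are read across intestines of adult wild-type worms (strain N2) kept in liquid mCeHR2 medium at 20 °C, with heme at 2, 20 or 400 µM from the first larval stage for 4 days. Each library pools the dissected intestines of 3 worms. With 3 libraries at each dose there are 9 in all, and every value is that of a pool. RNA was copied and amplified by the SMART-seq method, and no group carries a mutation or a transgene. No label states that libraries with the same heme dose were grown apart, and the p-values thus measure a spread that may be in part technical.

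Worms do not make heme and take it up from their food through the intestine. The pals family is far larger in C. elegans than in mammals, and many of its members lie side by side. In the worm, many pals genes are switched on in the intestine as part of the intracellular pathogen response, a transcriptional program that follows infection by the Orsay virus or by microsporidia and also other stresses. pals-5 serves as the standard reporter of that program. pals-22 keeps the program off, and its neighbour pals-25 is needed for the program to come on when pals-22 is lost. pals-17 is a second repressor that works against pals-16 and pals-20.

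The 9 libraries held between 44385011 counts (20 µM replicate 3) and 72960600 counts (2 µM replicate 1). Levels are CPM (counts scaled to library size), scaled with edgeR's TMM factors, which correct for differences in library composition. A level of 3 counts, the limit that a count of 0 allows, lay between 0.0369 and 0.094 CPM. These limits, like the intervals below, cover counting error only, because amplified reads without molecular identifiers are not independent molecules. Replicates 2 and 3 at 2 µM were closer to each other than any other pair of replicates (Pearson's r of 0.976 across genes, against 0.740 to 0.913) but differed beyond sampling noise, with a chi-square per degree of freedom of 11.3 against 361 to 4694 for the other pairs. Whether they came from separate pools of worms cannot be told from these values; they were kept as separate libraries, with their sum as an alternative. In dissected intestine, fewer cells of a type and less RNA per cell cannot be told apart.

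One library stood apart for the family. In 20 µM replicate 3 the 35 members summed to 1718 CPM. The other libraries summed to 229.7, 167 and 173 CPM at 2 µM, to 199 and 252 CPM in replicates 1 and 2 at 20 µM, and to 121, 75.7 and 143 CPM at 400 µM. The sum in 20 µM replicate 3 was 6.81 times the next highest. Members took 0.124% of all its counts (exact 95% binomial interval 0.123% to 0.125%), against 0.00734% to 0.0299% in the other 8. All 35 members had at least 10 counts there, against 21 to 24 members elsewhere, and the median member stood at 25 CPM against 0.394 to 1.96 CPM. This library shares its heme label with replicates 1 and 2, and what sets it apart from them was not tested.

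**Figure D1:**
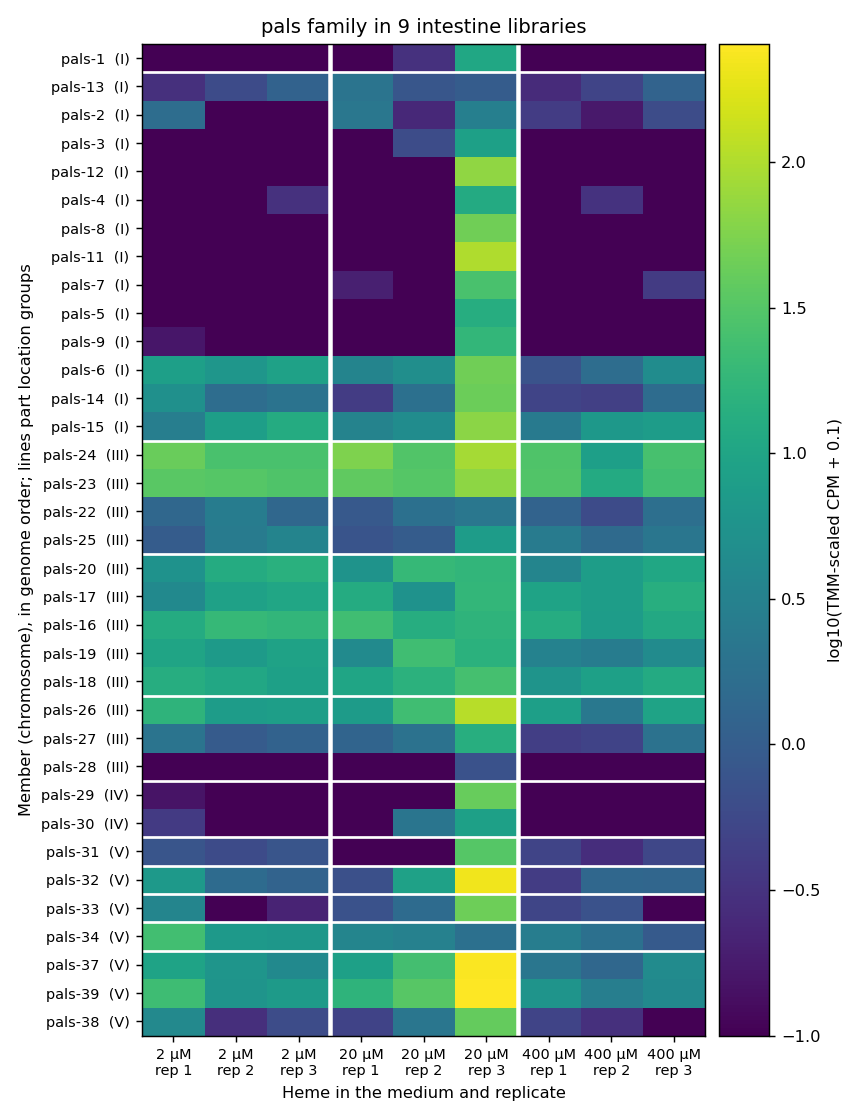
Level of each of the 35 pals members (rows, in genome order, white lines between location groups) in each of the 9 libraries (columns), as the base 10 logarithm of TMM-scaled CPM + 0.1. The column of 20 µM replicate 3 is the brightest in 29 rows of 35; in the rows of the pals-22 and pals-17 groups on chromosome III that column is at 0.647 to 2.22 times the next highest.

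Among the members, 29 of 35 had their highest level in 20 µM replicate 3, against 14.1% of all genes. Of the 34 members with at least 1 CPM in a library, 28 did, against 16.9% of the 12761 such genes. The count was 27 when CPM was scaled to all counts and 29 when scaled to counts outside ribosomal RNA. The other 6 peaked elsewhere: pals-13 and pals-16 in 20 µM replicate 1, pals-19 and pals-20 in 20 µM replicate 2, pals-22 in 2 µM replicate 2, and pals-34 in 2 µM replicate 1. At a level of at least 5 CPM and at least 10 times the highest of the other 8 libraries, 20 µM replicate 3 held 41 genes, 0.772% of the 5310 genes at that level, and 14 of them were pals members of 30 at that level. The same criterion found 253 genes in 2 µM replicate 1 and 110 in 20 µM replicate 2, with 0 members in each. Over the 12761 genes, the ratio of 20 µM replicate 3 to the highest other library had a median of 0.255 and a 99th percentile of 5.94, and the members' median was 7.27.

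20 µM replicate 3 also had the fewest counts, the fewest genes with a count (10959, against 13414 to 15863) and the largest share of counts from ribosomal RNA genes (42%, against 2.3% to 35.3%). The part of depth and ribosomal RNA in the family's level was not tested. Of the 7 tissue marker lists, all 7 had a summed level in this library within the range of the other 8, which spans 3 doses. Against replicates 1 and 2 at 20 µM alone, its sperm markers were higher (411 CPM, against 127 and 77.5 CPM). Its pharynx markers were lower (79.1 CPM, against 771 and 576 CPM), as were its neuron markers (80.8 CPM, against 99.2 and 373 CPM). The other lists lay between those replicates. The 15 intestine markers, none of them at 0 there, summed to 284196 CPM (24912 to 339537 CPM in the others), of which the yolk protein gene vit-2 made up 220596 CPM. Of the 15, vit-2 and elt-2, the intestinal GATA factor, were higher there than in every other library. Another 4 were lower there than in every other library: act-5 (399 CPM, against 923 to 3277), mtl-1 (122 CPM, against 310 to 4678), pho-1 (45.4 CPM, against 87.9 to 130.2) and erm-1 (18.8 CPM, against 25.4 to 123). The 36 sperm markers summed to 411 CPM (77.5 to 12073 CPM). The 13 pharynx markers summed to 79.1 CPM (1.43 to 771 CPM), with 7 of them at 0. Germline markers summed to 209.6 CPM (50.4 to 4475 CPM), body wall muscle markers to 171 CPM (92.2 to 3455 CPM), hypodermis markers to 261 CPM (166 to 10523 CPM) and neuron markers to 80.8 CPM (46.8 to 373 CPM). Also at 0 there were 7 of 15 hypodermis, 3 of 12 neuron, 2 of 36 sperm, 2 of 23 germline and 0 of 12 body wall muscle markers.

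**Figure D2:**
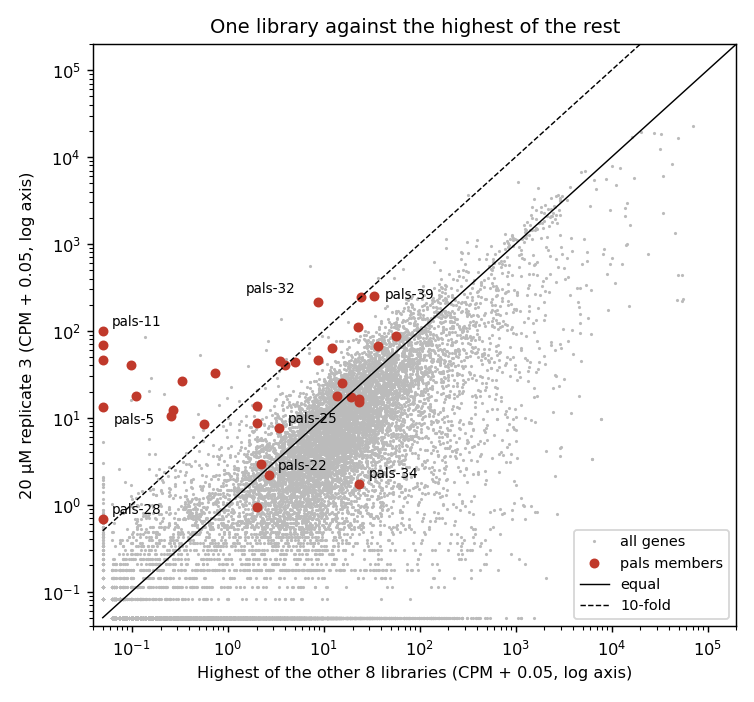
Level of every gene in 20 µM replicate 3 (vertical axis) against its highest level in the other 8 libraries (horizontal axis), both as TMM-scaled CPM + 0.05 on log axes, with pals members as large points. The solid line marks equal levels and the dashed line 10-fold; pals-11 and pals-5 were at 0 counts in the other 8 libraries, and pals-34 lies far below the line of equality.

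The largest location group lies on chromosome I between positions 13083321 and 13144623 and holds 13 members (groups join members less than 50000 bases apart). In 12 of the 13 the level was highest in 20 µM replicate 3. Its members include pals-5, the reporter of the pathogen response, which had 417 counts (13.1 CPM) in that library and 0 counts in the other 8. Against 3 counts per library, that is at least 171-fold higher.

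pals-11 and pals-8, in the same stretch as pals-5, had the same all-or-none pattern. pals-11 had 3157 counts (98.9 CPM) in 20 µM replicate 3 and 0 in the other 8 libraries, at least 1295-fold higher. pals-8 had 1481 counts (46.4 CPM) there and 0 elsewhere, at least 607-fold higher. pals-12 had 2170 counts (68 CPM) and 0 elsewhere, at least 890-fold higher as counted. But 1185 of its 1191 exon bases are shared on the same strand with pals-3, so the counts of these 2 genes cannot be told apart. pals-3 had 32 counts in 20 µM replicate 2, so the 0 elsewhere and the bound are uncertain for pals-12. pals-7 had 26.5 CPM in the same library, and elsewhere 0.102 CPM in 20 µM replicate 1, 0.287 CPM in 400 µM replicate 3 and 0 in the other 6. Thus 5 members in all, with pals-12 as counted and with pals-28 on chromosome III, had no count outside 1 library. pals-28 had only 20 counts in it (0.627 CPM, at least 8.2-fold).

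The members at the end of the same stretch were on in all 9 libraries. pals-6 had 8.23, 6.01 and 8.73 CPM at 2 µM, 3.29, 4.66 and 46.2 CPM at 20 µM, and 0.635, 1.53 and 4.48 CPM at 400 µM. pals-14 had 5, 1.53 and 1.91 CPM at 2 µM, 0.306, 1.68 and 43.5 CPM at 20 µM, and 0.394, 0.343 and 1.51 CPM at 400 µM. pals-15 had 2.8, 7.89 and 12.2 CPM at 2 µM, 3.26, 4.4 and 64.1 CPM at 20 µM, and 2.45, 6.42 and 7.58 CPM at 400 µM. In all 3 of these genes only replicate 3 at 20 µM left the range of the other libraries, by 5.25 to 8.69 times. The remaining 5 members of the stretch, pals-2, pals-3, pals-4, pals-9 and pals-13, were at or below 2.17 CPM in the other 8 libraries, and between 0.877 CPM (pals-13) and 17.7 CPM (pals-9) in 20 µM replicate 3. pals-1, alone at chromosome I 11579856 to 11581989, had 10.5 CPM there, 0.209 CPM in 20 µM replicate 2 and 0 in the other 7.

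On chromosome V, pals-37, pals-39 and pals-38 lie next to each other on the minus strand between positions 12437440 and 12446995. pals-37 had 9.26, 5.86 and 4.01 CPM at 2 µM, 8.43, 24.5 and 243 CPM at 20 µM, and 2.1, 1.28 and 4.28 CPM at 400 µM. pals-39 had 22.4, 5.75 and 7.15 CPM at 2 µM, 16.1, 33.2 and 254 CPM at 20 µM, and 5.77, 2.76 and 3.97 CPM at 400 µM. For both genes every 20 µM library lay above every 400 µM library in TMM-scaled CPM. 20 µM replicate 3 stood 9.9 and 7.65 times above the next highest, which was 20 µM replicate 2. pals-38 had 3.89, 0.188 and 0.523 CPM at 2 µM, 0.382, 2.06 and 40.1 CPM at 20 µM, and 0.394, 0.199 and 0 CPM at 400 µM.

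The members that lie alone on chromosome V fell into 2 kinds. pals-32 had 6.76, 1.43 and 1.13 CPM at 2 µM, 0.586, 8.67 and 213 CPM at 20 µM, and 0.305, 1.28 and 1.25 CPM at 400 µM. pals-33 had 3.47, 0 and 0.118 CPM at 2 µM, 0.611, 1.43 and 44.8 CPM at 20 µM, and 0.407, 0.632 and 0 CPM at 400 µM. pals-31 had 0.69, 0.492 and 0.691 CPM at 2 µM, 0, 0 and 32.2 CPM at 20 µM, and 0.394, 0.18 and 0.431 CPM at 400 µM. These 3 genes stood 24.6, 12.9 and 46.6 times above their next highest library in 20 µM replicate 3, and pals-31 was at 0 in the other pair of 20 µM libraries.

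pals-34, at chromosome V 7955404 to 7956497, ran the other way. It had 23.5, 6.74 and 6.26 CPM at 2 µM, 3.49, 3.08 and 1.69 CPM at 20 µM, and 2.68, 1.71 and 0.822 CPM at 400 µM. All 3 libraries at 2 µM lay above all 6 others (against 20 µM, 12.7% of all genes had such a gap), while the 20 and 400 µM libraries overlapped, and 20 µM replicate 3 was at 0.0719 times the highest. The highest level was that of 2 µM replicate 1, and this library also stood apart in markers of other tissues. Its hypodermis markers summed to 10523 CPM, against 175 CPM in each of the other 2 µM libraries, and its body wall muscle markers to 3455 CPM, against 92.2 and 101 CPM. The part of these tissues in the level of pals-34 was not tested.

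On chromosomes III and IV outside the groups of the regulators, 20 µM replicate 3 was again the highest library for each of the 5 members. pals-26 had 16.5, 7.57 and 8.06 CPM at 2 µM, 7.36, 22.6 and 111 CPM at 20 µM, and 8.3, 2.24 and 9.23 CPM at 400 µM. Its neighbour pals-27 had 13.5 CPM in 20 µM replicate 3 and 0.33 to 1.96 CPM in the other 8. pals-29 had 40.7 CPM in the same library, 0.0493 CPM (4 counts) in 2 µM replicate 1 and 0 in the other 7. pals-30, beside pals-29 on chromosome IV, was on in 3 libraries, at 0.283 CPM in 2 µM replicate 1, 1.98 CPM in 20 µM replicate 2 and 8.55 CPM in 20 µM replicate 3.

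The members that control the response lie in 2 other groups on chromosome III, and there 20 µM replicate 3 stood out less than for the other members as a set. pals-22, the repressor, had 1.26, 2.62 and 1.26 CPM at 2 µM, 0.79, 1.72 and 2.13 CPM at 20 µM, and 1.11, 0.505 and 1.66 CPM at 400 µM. pals-25, the activator downstream of it in the same stretch (positions 120435 to 137975), had 0.887, 2.47 and 3.37 CPM at 2 µM, 0.662, 0.886 and 7.49 CPM at 20 µM, and 2.53, 1.41 and 2.1 CPM at 400 µM. pals-22 was highest at 2 µM and pals-25 in 20 µM replicate 3, at 2.22 times its next highest library. Their neighbours pals-23 and pals-24 were among the most abundant members. pals-23 had 34.5, 32.2 and 29.4 CPM at 2 µM, 36.9, 31.6 and 67.5 CPM at 20 µM, and 29.7, 12 and 23.9 CPM at 400 µM. pals-24 had 42, 27 and 26.4 CPM at 2 µM, 56.1, 30.4 and 87.5 CPM at 20 µM, and 29.3, 8.18 and 25.7 CPM at 400 µM. For both, the lowest 20 µM library lay above the highest 400 µM library in TMM-scaled CPM.

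pals-17, the second repressor, lies at positions 1386993 to 1406263 with pals-16, pals-18, pals-19 and pals-20. pals-17 had 4, 8.7 and 10.3 CPM at 2 µM, 12.3, 5.32 and 17.9 CPM at 20 µM, and 9.46, 7.76 and 13.7 CPM at 400 µM. pals-16 had 12.3, 19.1 and 17.4 CPM at 2 µM, 23.1, 13 and 16.4 CPM at 20 µM, and 12.6, 7.42 and 11.4 CPM at 400 µM. pals-20 had 5.36, 12.2 and 14.5 CPM at 2 µM, 5.58, 19.2 and 17.4 CPM at 20 µM, and 3.4, 7.74 and 10.6 CPM at 400 µM. The doses overlapped for pals-17 and pals-20, and for pals-16 the 20 µM libraries lay above those at 400 µM in TMM-scaled CPM. pals-18 had 13.3, 11 and 8.48 CPM at 2 µM, 9.83, 15.4 and 25 CPM at 20 µM, and 5.69, 8.39 and 11.9 CPM at 400 µM. pals-19 had 9.58, 7.09 and 9.09 CPM at 2 µM, 4.1, 23.1 and 14.9 CPM at 20 µM, and 3.13, 2.62 and 4.33 CPM at 400 µM. pals-18 and pals-19 share 53 exon bases on the same strand, and the 2 µM libraries of pals-19 all lay above those at 400 µM.

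**Figure D3:**
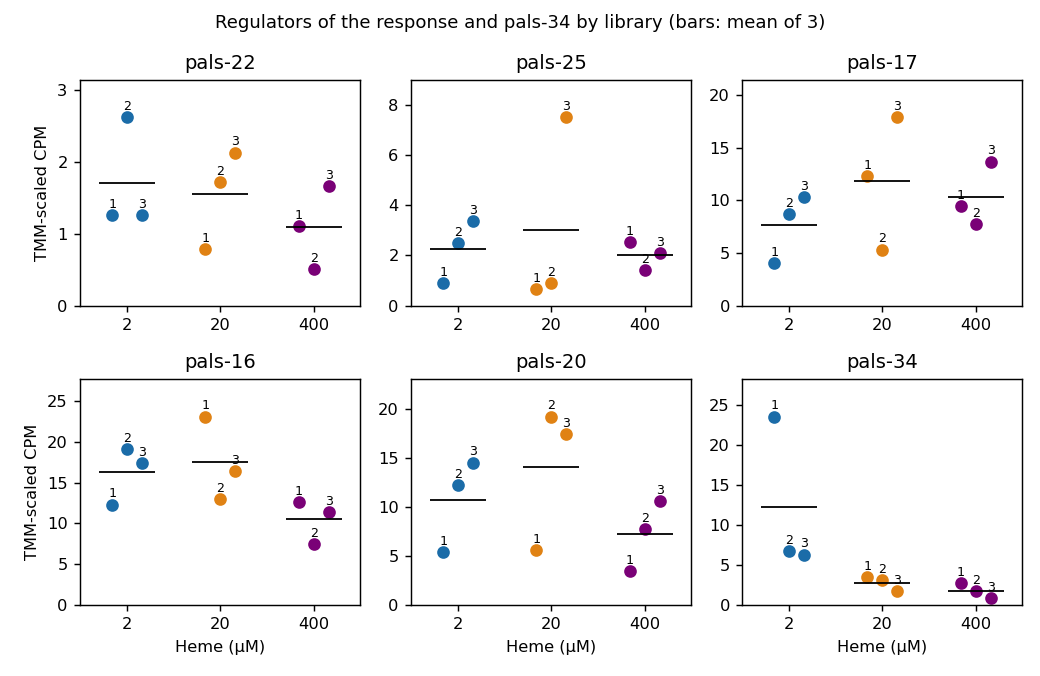
TMM-scaled CPM of the regulators pals-22, pals-25, pals-17, pals-16 and pals-20 and of pals-34 in each of the 9 libraries, by heme dose in µM, with the replicate number above each point and a bar at the mean of 3. pals-25 has a single high point of 7.49 CPM in 20 µM replicate 3, and the 3 points of pals-34 at 2 µM lie above the other 6.

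As a set, the 9 members of these 2 groups had a median ratio of 20 µM replicate 3 to the next highest library of 1.3, with a range of 0.647 to 2.22. The median over the other 26 members was 11.6. Over the 12761 genes with at least 1 CPM in a library, it was 0.255, with a 95th percentile of 2. In the pals-22 group 3 of 4 members were highest in 20 µM replicate 3, and in the pals-17 group 2 of 5, against 14.1% of all genes. The 9 summed to 123.1, 122.3 and 120.2 CPM at 2 µM, 149.3, 140.5 and 256.3 CPM at 20 µM, and 96.8, 56 and 105.3 CPM at 400 µM. The other 26 summed to 106.6, 44.8 and 53.1 CPM at 2 µM, 49.2, 111.7 and 1462.1 CPM at 20 µM, and 24.6, 19.7 and 37.3 CPM at 400 µM. Both sums were lowest in 400 µM replicate 2 and highest in 20 µM replicate 3. The split into these sets was made with the values known, so the difference is given as a description. Within the location groups lie 9 protein-coding genes of other families that were analysed. Of these 9, 4 were highest in 20 µM replicate 3, at 1.69 to 3.35 CPM there, against 14.1% of all genes. Only 1 of the 9 reached 5 CPM there, C29F9.2 with 7.21 CPM, which had 39.1 CPM in 20 µM replicate 2. T27E7.9, which lies between pals-29 and pals-30, had 1.69 CPM in 20 µM replicate 3 and 0 in the other 8 libraries.

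Levels between members were compared with the authors' FPKM values, which are scaled to gene length. In 20 µM replicate 3 the order from the top was pals-39 (136.37 FPKM), pals-32 (124.42), pals-37 (72.55), pals-11 (67.27) and pals-24 (64.4). In 7 of the other 8 libraries the most abundant member was pals-23 or pals-24, at 11.56 FPKM (pals-23 in 400 µM replicate 2) to 37.86 FPKM (pals-24 in 400 µM replicate 1). The exception was 2 µM replicate 1, where pals-34 stood at 49.1 FPKM and pals-24 at 48.48. No spread can be attached to these within-library orders.

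**Figure D4:**
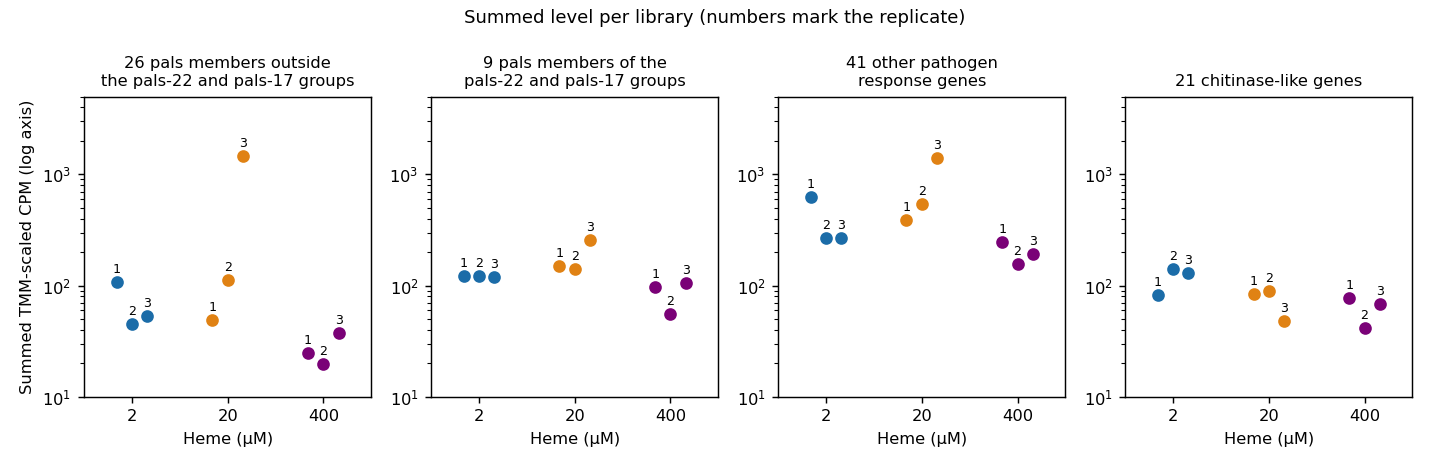
Summed TMM-scaled CPM per library (log axis) by heme dose in µM for the 26 pals members outside the pals-22 and pals-17 groups, the 9 members of those groups, and other listed gene sets, with the replicate number above each point. In the first panel 20 µM replicate 3 is at 1462.1 CPM and the other 8 libraries lie between 19.7 and 111.7 CPM.

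Doses were compared with edgeR's quasi-likelihood test on the counts of all 9 libraries, with Benjamini-Hochberg adjustment over the 13434 genes that passed the filter on low counts. Of the 35 members 25 passed it, and 10 did not: pals-1, pals-3, pals-5, pals-7, pals-8, pals-9, pals-11, pals-12, pals-28 and pals-29, which had at least 10 counts in at most 2 libraries. These 10 have levels here and no edgeR test. DESeq2, which filters otherwise, gave pals-3 an adjusted p. Because 20 µM enters 2 of the 3 comparisons, their fold changes share those libraries.

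The comparison of 2 µM with 20 µM asks what low heme does to the family. No member passed an adjusted p of 0.05 by edgeR, where 0.0744% of all genes tested did. At an unadjusted p under 0.05 there were 4 members, of which pals-34 was higher at 2 µM (8.09% of all genes) and pals-32, pals-37 and pals-39 were lower (5.34% of all genes). The level of pals-34 was 12.2 ± 9.84 CPM with 2 µM heme against 2.75 ± 0.942 CPM with 20 µM (SD, n = 3), a log2 fold change of 2.14 (SE 0.70, edgeR adjusted p 0.256), and 1.26 without 2 µM replicate 1 (adjusted p 0.419), the library with the high hypodermis and muscle markers. pals-37 had a log2 fold change of -3.85 (SE 1.18, edgeR adjusted p 0.232), pals-39 one of -3.1 (SE 1.05, adjusted p 0.277) and pals-32 one of -4.57 (SE 1.80, adjusted p 0.338). Without 20 µM replicate 3 these 3 came to -1.36, -1.07 and -0.58, and 0 members were lower at an unadjusted p under 0.05. The members with such a p in that fit were pals-34 and pals-31, both higher at 2 µM (7.28% of all genes). pals-31 was at 0 counts in 20 µM replicates 1 and 2 and thus at least 8.17-fold higher at 2 µM against 3 counts per library (edgeR adjusted p 0.148), where its log2 fold change with all libraries was -4.1 (SE 2.33, adjusted p 0.475). DESeq2's Wald test, on the same counts, called pals-32, pals-37 and pals-39 lower at 2 µM among 22 members with an adjusted p, against 2.74% of all genes, and limma-voom called 0 (1.88% of all genes), with 6 lower at an unadjusted p under 0.05 (8.11%).

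Among the 25 members tested, 23 had a log2 fold change below 0 in this comparison, against 45.3% of all genes. Without 20 µM replicate 3 it was 15 of the 25, against 45.8%. The sign turned from lower to higher at 2 µM for 8 members: pals-4, pals-6, pals-14, pals-15, pals-25, pals-31, pals-33 and pals-38. pals-14 went from -2.43 to 1.5 and pals-15 from -1.65 to 1.01, both with an unadjusted p above 0.05 in either fit. The members' median was -1.65 on the log2 scale with all libraries and -0.18 without that library, and the medians over all genes were 0.12 and 0.08. Without 2 µM replicate 1 the members' median was -2.57. It was -0.58 with limma-voom, -0.76 over the 10 members with at least 10 CPM in 3 libraries, and -3.16 over all 35 members with no filter on low counts. None of the 5 regulators had an unadjusted p under 0.05. pals-22 had a log2 fold change of 0.15 (SE 0.77, edgeR adjusted p 0.955) and pals-17 one of -0.63 (SE 0.54, adjusted p 0.649). pals-16 was at -0.1 (SE 0.39, adjusted p 0.936) and pals-20 at -0.4 (SE 0.62, adjusted p 0.82). pals-25 was at -0.42 (SE 0.98, edgeR adjusted p 0.888) and at 1.55 without 20 µM replicate 3, so its direction turned with 1 library. Summed levels of 2 marker lists did not overlap between these doses: the pharynx markers were at 1.43 to 9.19 CPM with 2 µM heme and 79.1 to 771 CPM with 20 µM, and the sperm markers at 1288 to 1356 CPM and 77.5 to 411 CPM. At an unadjusted p under 0.05 by edgeR, 10 of the 11 pharynx markers tested were lower at 2 µM and 25 of 36 sperm markers higher, and 7 of the 13 pharynx markers were at 0 in all 2 µM libraries. The part of these tissues in the members' fold changes was not tested.

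The comparison of 400 µM with 20 µM asks the same of high heme. No member passed an adjusted p of 0.05 by edgeR, where 0.551% of all genes did. At an unadjusted p under 0.05 there were 12 members, all lower at 400 µM, against 7.28% of all genes: pals-6, pals-14, pals-19, pals-23, pals-24, pals-26, pals-27, pals-30, pals-32, pals-37, pals-38 and pals-39. The smallest p-values were those of pals-37, with a log2 fold change of -5.17 (SE 1.26, edgeR adjusted p 0.104), and pals-39, with -4.6 (SE 1.13, adjusted p 0.105). Without 20 µM replicate 3 they came to -2.68 and -2.56, and every 20 µM library still lay above every 400 µM library in TMM-scaled CPM. pals-19 had a log2 fold change of -2.06 (SE 0.59, adjusted p 0.144) and one of -2.01 without that library. In pals-19, 20 µM replicate 1, at 4.1 CPM, lay inside the range of the 400 µM libraries.

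The other 9 members did not keep an unadjusted p under 0.05 without 20 µM replicate 3. pals-24 was at -1.46 (SE 0.58, edgeR adjusted p 0.232) and at -1.03 without that library, and pals-23 at -1.05 (SE 0.46, adjusted p 0.267) and -0.64. pals-32 was at -6.29 (SE 1.96, adjusted p 0.163) and at -2.29 without it, and pals-38 at -6.15 (SE 2.18, adjusted p 0.201) and -2.62. pals-26 was at -2.83 (SE 0.98, adjusted p 0.195) and at -1.18 without it, and pals-27 at -2.68 (SE 1.13, adjusted p 0.253) and -0.82. pals-14 was at -4.33 (SE 1.63, adjusted p 0.218) and at -0.4 without it, and pals-6 at -3.02 (SE 1.1, adjusted p 0.208) and -0.84. pals-30 had 0 counts in all 400 µM libraries and in 20 µM replicate 1. Its mean level at 20 µM was higher by at least 64.9-fold, or 18.3-fold without replicate 3, against 3 counts per library (edgeR adjusted p 0.203 with all libraries). The bound without replicate 3 rests on 20 µM replicate 2 alone. Of these 12 members 3 kept one without that library (pals-19, pals-37 and pals-39), and 5.61% of all genes were lower at such a p in that fit. There pals-31 had one in the other direction, at least 4.38-fold higher at 400 µM against 3 counts per library (edgeR adjusted p 0.129, 10% of all genes higher), where its log2 fold change with all libraries was -4.99 (SE 2.43, adjusted p 0.312).

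All 25 members tested had a log2 fold change below 0 at 400 µM, against 50.9% of all genes, and 20 of 25 did without 20 µM replicate 3, against 52.5%. The members' median was -2.51 with all libraries and -0.84 without that library, where all genes had -0.03 and -0.08. Libraries did not overlap between the doses for 5 members, pals-16, pals-23, pals-24, pals-37 and pals-39, all lower at 400 µM, where 7.44% of all genes were. These gaps are those of TMM-scaled CPM, with a factor of 0.599 for 20 µM replicate 1 and 1.248 for 400 µM replicate 1. In the authors' FPKM, 20 µM replicate 1 lay below the highest 400 µM library for pals-23 (21.87 against 36.54) and pals-24 (34.95 against 37.86). The same was so for pals-16 (13.61 against 15.36) and pals-37 (2.12 against 2.13). Only pals-39 kept its gap there (7.32 against 5.44). DESeq2 called 8 of 21 members lower, pals-3, pals-19, pals-26, pals-30, pals-32, pals-37, pals-38 and pals-39, against 3.35% of all genes, while limma-voom called 0 members and 0 genes, with 8 members lower at an unadjusted p under 0.05 (6.33% of all genes). Without 20 µM replicate 1, edgeR called 4 of 28 members, all lower at 400 µM: pals-19 (adjusted p 0.0287), pals-37 (0.0316), pals-39 (0.0335) and pals-32 (0.0424). In that fit 2.66% of all genes were called lower. Of the regulators, pals-16 had a log2 fold change of -0.74 (SE 0.39, edgeR adjusted p 0.341), pals-20 one of -0.95 (SE 0.63, adjusted p 0.448) and pals-22 one of -0.51 (SE 0.77, adjusted p 0.78). pals-17 was at -0.2 (SE 0.54, edgeR adjusted p 0.886) and at 0.24 without 20 µM replicate 3. pals-25 was at -0.58 (SE 0.98, edgeR adjusted p 0.803) and at 1.38 without that library. Sperm markers summed to 1403 to 12073 CPM with 400 µM heme and 77.5 to 411 CPM with 20 µM, and germline markers to 1354 to 4475 CPM and 50.4 to 398 CPM. Neither list overlapped between these doses. At an unadjusted p under 0.05 by edgeR, 35 of 36 sperm markers and 17 of 23 germline markers were higher at 400 µM, 11 of the sperm markers with an adjusted p under 0.05. The part of these tissues was not tested here either.

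**Figure D5:**
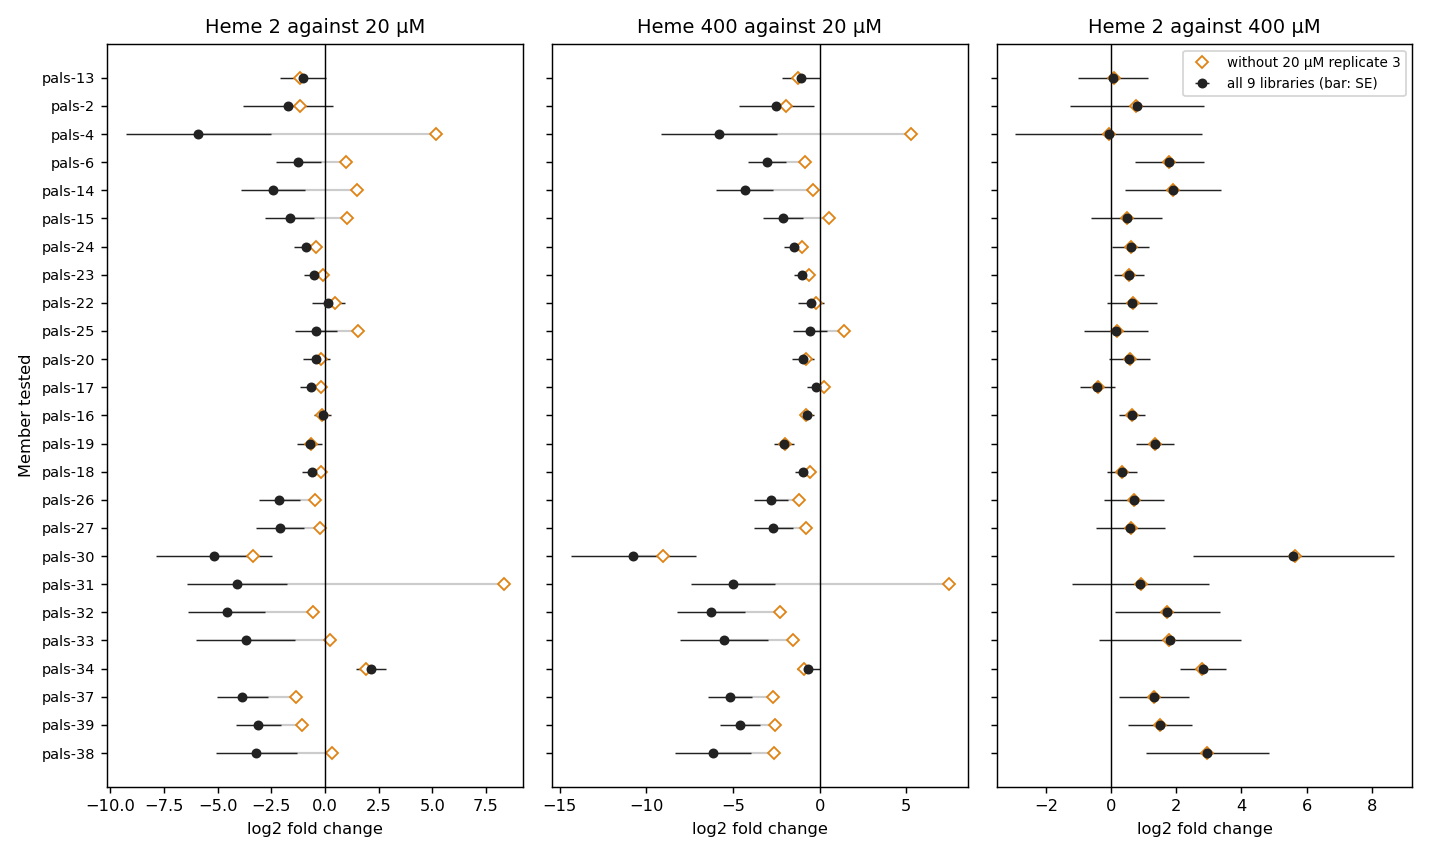
Log2 fold change (horizontal axis) of the 25 members tested in the 3 dose comparisons, with all 9 libraries (filled points, bars are SE) and without 20 µM replicate 3 (open diamonds). In the comparison of 400 with 20 µM all 25 filled points lie below 0 and 20 diamonds do; points of pals-4, pals-30 and pals-31 rest on doses with 0 counts and are not bounds.

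The comparison of 2 µM with 400 µM uses no 20 µM level, although those libraries share in the estimate of the spread. No member passed an adjusted p of 0.05 by edgeR, where 0.104% of all genes did. pals-34 and pals-19 had an unadjusted p under 0.05, both higher at 2 µM, against 5.2% of all genes. For pals-34, 12.2 ± 9.84 CPM with 2 µM heme stood against 1.74 ± 0.929 CPM with 400 µM (SD, n = 3), a log2 fold change of 2.81 (SE 0.71, edgeR adjusted p 0.241), and 1.87 without 2 µM replicate 1 (adjusted p 0.37). DESeq2 called pals-34 higher, as its only member of 22, where it called 1.76% of all genes higher. pals-19 had 8.59 ± 1.32 CPM against 3.36 ± 0.882 CPM (SD, n = 3), a log2 fold change of 1.35 (SE 0.58, edgeR adjusted p 0.457). Without 20 µM replicate 3 in the estimate of the spread, the members with an unadjusted p under 0.05 were pals-6, pals-34 and pals-39, all higher at 2 µM (6.47% of all genes).

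Of the 25 members, 23 had a log2 fold change above 0 at 2 µM, against 50.8% of all genes, with a median of 0.70 against 0.02, and of 1.09 without 400 µM replicate 3. The libraries of the 2 doses did not overlap for 5 members, pals-6, pals-14, pals-19, pals-31 and pals-34, all higher at 2 µM, where 14.4% of all genes were. In the authors' FPKM pals-14 did overlap, with 1.48 in 2 µM replicate 2 and 1.56 in 400 µM replicate 3. limma-voom called pals-16, pals-19 and pals-34 higher and pals-2 lower, in a fit that called 27.3% of all genes. For pals-2 that fit went against the mean levels, which were 0.517 CPM with 2 µM heme and 0.3 CPM with 400 µM. Its log2 fold change was -4.79 by limma-voom (adjusted p 0.0131) and 0.78 by edgeR (adjusted p 0.943). limma-voom gave 2 µM replicate 1, the only library at that dose with counts of pals-2, a weight of 0.275, and replicates 2 and 3 weights of 6.69 and 6.34. pals-16 had a log2 fold change of 0.64 (SE 0.39, edgeR adjusted p 0.641), pals-20 one of 0.56 (SE 0.62, adjusted p 0.85) and pals-22 one of 0.65 (SE 0.77, adjusted p 0.863). pals-25 was at 0.16 (SE 0.98, edgeR adjusted p 0.977) and pals-17 at -0.43 (SE 0.54, adjusted p 0.869). Marker lists whose summed levels did not overlap between these doses were those of pharynx (1.43 to 9.19 CPM with 2 µM heme, 9.8 to 165 CPM with 400 µM), sperm (1288 to 1356 CPM and 1403 to 12073 CPM) and germline (149.7 to 328 CPM and 1354 to 4475 CPM). As a share of all counts, the sperm markers did overlap (0.143% to 0.148% and 0.136% to 1.51%). At an unadjusted p under 0.05 by edgeR, 3 of 11 pharynx, 23 of 36 sperm and 18 of 23 germline markers were lower at 2 µM, and 9 of 13 hypodermis markers higher. The hypodermis markers summed to 10523 CPM in 2 µM replicate 1. In replicates 2 and 3 at 2 µM they summed to 175 CPM each, below the 535 to 3527 CPM with 400 µM heme. The part of these tissues in the members' values was not tested.

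The pathogen response also holds genes outside the family, and the 52 listed symbols, some of them duplicates, matched 41 different genes in the table. They summed to 1413 CPM in 20 µM replicate 3 and to 156 to 632 CPM in the other 8. As a share of all counts this was 0.0151% to 0.0703% in the other 8 libraries and 0.102% in 20 µM replicate 3. Most of the sum in that library came from ddn-1 and math-38. Of the 34 genes with at least 1 CPM in a library, 17 were highest in 20 µM replicate 3, against 16.9% of all such genes. ddn-1 had 561 CPM there and 1.97 to 7.17 CPM elsewhere, math-38 had 409 CPM and 15.4 to 36.8 CPM, ZC196.3 had 53.3 CPM and 0 to 0.47 CPM, Y47H10A.5 had 13.9 CPM and 0 to 0.764 CPM, and math-5 had 5.23 CPM and 0 elsewhere. These 5 met the criterion of 5 CPM and 10-fold. Another 22 of the 41 genes that met it were on neither list, among them lec-2, a galectin, with 3648 CPM there and at most 323 CPM elsewhere (named after its values were seen). Of the ubiquitin ligase of the response, cul-6, its cullin, had 2.13 CPM in that library and 1.65 to 6.74 CPM in the others. The adaptors skr-3 (42.3 CPM, against 22.2 to 98.1) and skr-5 (7.49 CPM, against 7.33 to 20.8) also lay within the range of the others, while the adaptor skr-4 was highest there (39.5 CPM, against 7.35 to 33.8). From the same list, fbxa-158 (4.29 CPM, against 0 to 2.18) and fbxa-182 (5.92 CPM, against 1.12 to 3.51) were highest there. C28G1.5, matched to the symbol rcs-1, lay within the range of the others (13.7 CPM, against 5.52 to 35).

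Among the 36 of these genes tested, 0 passed an adjusted p of 0.05 by edgeR in any comparison. Their median log2 fold change was -0.81 between 2 and 20 µM and -1.59 between 400 and 20 µM, and came to -0.14 and -0.97 without 20 µM replicate 3. Between 2 and 400 µM it was 0.61. The smallest p was that of math-15, with 9.98, 11.7 and 10.7 CPM at 2 µM, 0.993, 1.29 and 0.564 CPM at 20 µM, and 0.457, 0.379 and 1.14 CPM at 400 µM. Its 2 µM libraries lay above all others, with log2 fold changes of 3.5 (SE 0.61, edgeR adjusted p 0.0971) against 20 µM and 4.03 (SE 0.63, adjusted p 0.0655) against 400 µM. At an unadjusted p under 0.05, 14 of the 36 were lower at 400 than at 20 µM, against 7.28% of all genes, and the smallest p-values were those of C28G1.5 (log2 fold change -1.69), math-39 (-1.6), F14F9.4 (-1.64) and W09G12.7 (-3.72).

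zip-1, the bZIP factor that drives part of the response, had 7.93, 9 and 8.92 CPM at 2 µM, 9.5, 20.9 and 40.7 CPM at 20 µM, and 4.24, 2.62 and 4.9 CPM at 400 µM. In TMM-scaled CPM all 3 libraries at 20 µM lay above all 3 at 400 µM, with a log2 fold change of -2.6 for 400 against 20 µM (SE 0.55, edgeR adjusted p 0.07). drh-1, the RIG-I-like receptor that senses viral RNA, had 34.3, 47.4 and 40.5 CPM at 2 µM, 48.7, 66.6 and 95.1 CPM at 20 µM, and 16.1, 30.7 and 42.7 CPM at 400 µM, a log2 fold change of -1.23 in the same comparison (SE 0.46, adjusted p 0.215). hlh-30, the worm's TFEB, had 76.3 CPM in 20 µM replicate 3 and 4.79 to 13.3 CPM elsewhere. Of the 16 listed regulators tested, 0 passed by edgeR in any comparison, and 6 were lower and 1 higher at 400 than at 20 µM at an unadjusted p under 0.05 (7.28% and 11.2% of all genes).

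Chitinase-like genes of the chil family, known from the worm's response to oomycetes, served as a neighbouring program. They summed to 48.4 CPM in 20 µM replicate 3, inside the 41.2 to 141 CPM of the other libraries, and 0 of the 15 tested passed by edgeR in any comparison. chil-9 had 13.6, 71.9 and 63.2 CPM at 2 µM, 0 at 20 µM, and 0, 0 and 0.196 CPM at 400 µM (edgeR adjusted p 0.104 for 2 against 20 µM). chil-9 was thus seen at 2 µM in all 3 libraries, where pals-5, the reporter of the other program, was at 0 counts. chil-21 went the other way, with 7.07, 4.85 and 4.4 CPM at 2 µM and 11.8, 11.6 and 14 CPM at 20 µM (log2 fold change -1.2, edgeR adjusted p 0.237). chil-14 was lower at 2 than at 400 µM (-3.28, edgeR adjusted p 0.457). For 2 against 20 µM, 3 of the 15 were higher and 1 lower at an unadjusted p under 0.05 by edgeR (8.09% and 5.34% of all genes).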

How the data were processed

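The authors deposited 1 table with a whole-number count and an FPKM value per gene and library. Bowtie 0.12.2 and the build WBcel235 are named in the submitters' processing notes; the tool's role, the counter and the treatment of reads that map to several genes are not given in the sources used here, so counts of near-identical pals copies are uncertain. From the counts, TMM factors, edgeR 4.0.16 quasi-likelihood fits (R 4.3.3; filter on low counts by dose, 1 coefficient per dose, no block) and adjusted p-values over all 13434 genes tested were computed. DESeq2 1.42.0, limma 3.58.1, other filters and scalings, and fits without each library were alternatives. The deposited FPKM served to rank members within a library and to look at gaps between doses on a second scale. No column was left out. Locations come from the annotation of WBcel235. Per-library levels are given for the 5 regulators, pals-5 and the 20 other members of highest mean level, and fold changes for those of the first 6 that were tested (not pals-5) and members with an unadjusted p under 0.05; from the lists of other genes, up to 4 with the smallest p. Other genes named for their level in 20 µM replicate 3 were chosen after their values were seen. Members and the 10 gene lists were chosen with earlier results of these data known.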

Additional observations from a re-analysis of the deposited data

How the results depend on the processing

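No pals member passed an adjusted p of 0.05 under DESeq2's size factors, under either other filter on low counts, with only the groups compared, with ribosomal RNA genes removed or with replicates 2 and 3 at 2 µM summed. DESeq2's Wald test called 3, 8 and 1 members for 2 against 20, 400 against 20 and 2 against 400 µM, limma-voom called 4 in the last, and fits without 1 library each called 0 to 4 for 400 against 20 µM. The cause was not tested. For all genes in the 3 comparisons in that order, DESeq2 called 1021, 1721 and 620, the filter of 10 CPM in 3 libraries 26, 42 and 60, no filter 18, 147 and 29, limma-voom 253, 0 and 3670, only the groups compared 0, 0 and 284, and the summed replicates 0, 0 and 0. Fits without 1 library called 0 to 210, 0 to 953 and 0 to 54 genes. The edgeR dispersion was high (biological coefficient of variation 0.961), which limits what 3 libraries a dose can show.

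For the other pathogen response genes, DESeq2 called 2, 6 and 1, the filter of 10 CPM 1 each for 2 against 20 and 2 against 400 µM, limma-voom 11 and only the groups compared 1 for 2 against 400 µM, and fits without 1 library 0 to 5 for 400 against 20 µM and 0 to 1 for 2 against 400 µM. The members' median for 400 against 20 µM was -4.58 with DESeq2 and -4.55 with no filter, both over all 35 members with fitted values where a dose had 0 counts, and -3.24 to -0.84 without 1 library; for 2 against 400 µM it was 0.47 to 1.09. With the filter of 10 CPM it was -1.15 for 400 against 20 µM and 0.43 for 2 against 400 µM, and with limma-voom -1.47 for 400 against 20 µM. For 2 against 20 µM it was -3.21 with DESeq2, -1.89 with replicates 2 and 3 at 2 µM summed, and -2.57 to -0.18 without 1 library. Without 20 µM replicate 3, 8 of 25 members turned sign for 2 against 20 µM and 5 for 400 against 20 µM, 7 and 3 of them from a log2 fold change beyond 1. Under limma-voom 5, 3 and 3 members turned in the 3 comparisons. There pals-16 came to 0.12, pals-20 to 0.03 and pals-25 to 1.05 for 2 against 20 µM, and pals-17 to 0.13 and pals-25 to 0.53 for 400 against 20 µM. Without 1 library, pals-16 ranged from -0.31 to 0.16, pals-22 from -0.29 to 0.46 and pals-25 from -0.91 to 1.55 for 2 against 20 µM, pals-17 from -0.51 to 0.24 and pals-25 from -1.05 to 1.38 for 400 against 20 µM, and pals-25 from -0.33 to 0.49 for 2 against 400 µM (-0.05 with replicates summed).

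Not every same-numbered pair of libraries deviated together beyond a correlation of 0.1, so the replicate number was not taken as a pairing: replicate 1 pairs correlated at 0.174 to 0.214, replicate 3 pairs at 0.21 to 0.262 and replicate 2 pairs at -0.112 to 0.0219, and 6 of 9 libraries correlated best with their own number. With the replicate number as a block, 0 members and 2, 0 and 4 genes were called, the members' median was -0.73 for 2 against 20 µM and -1.57 for 400 against 20 µM, and pals-25 came to 0.13, 0.26 and -0.13 in the 3 comparisons. The fit without 20 µM replicate 3 was read as a second view, and the 5-fold and 20-fold criteria (20 and 11 members) were added, after seeing the data; the 10-fold count was 12 when CPM was scaled to all counts.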
